A study of Mus musculus with 3 samples.

Results

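Occupancy of the core circadian clock genes by HDAC3 and KLF4 was examined in mouse embryonic skin. The 10 genes were Arntl, Clock, Per1, Per2, Per3, Cry1, Cry2, Nr1d1, Nr1d2 and Dbp. A peak was counted for a gene when the nearest end of any protein-coding gene belonged to it, or when the peak was centred within 1 kb of either of its ends. By that rule 31 of 57920 HDAC3 peaks and 51 of 47140 KLF4 peaks on chromosomes belonged to the clock genes. The tissue was the epidermis of the back, taken from wild-type mice at E18.5, and proteins were cross-linked to DNA, precipitated and their DNA sequenced (ChIP-seq). An antibody to HDAC3 (Abcam ab7030), a histone deacetylase of corepressor complexes, gave 1 library of 56787485 tags, and an antibody to KLF4 (R&D AF3158) gave 1 library of 61432711 tags. Chromatin without antibody served as the input, also as 1 library. The time of day at which the epidermis was collected is not given in the sources used here. No antibody had a second library, so spread between replicates is unknown, nothing was tested between libraries, and the intervals given cover counting error only.

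The clock runs as a feedback loop of transcription. BMAL1, the product of Arntl, and CLOCK bind E-box elements together and switch on the Per, Cry, Nr1d1, Nr1d2 and Dbp genes. PER and CRY proteins then hold BMAL1 and CLOCK back, while the products of Nr1d1 and Nr1d2, the nuclear receptors REV-ERB alpha and REV-ERB beta, repress Arntl by recruiting the corepressor NCoR with HDAC3. Dbp encodes an output factor that binds D-box elements. Keratinocytes carry such a clock, which times their division and differentiation. KLF4 is a zinc finger transcription factor of the differentiating epidermis.

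Promoter sequences bear on where these peaks sat. RefSeq promoter windows of GRCm38.p6, from 250 bases before an annotated start to 50 bases after it, were found for 9 of the 10 genes. Peaks overlapped such a window at 3 of the 9 genes: Nr1d1, Nr1d2 and Arntl. The share of all promoter windows overlapped by a peak was not computed, so this count has no background beside it. The windows of Nr1d1 and Nr1d2 are printed because a peak covered letters of a searched motif, and those of Per1 and Cry1 because they held an E-box although the peaks lay outside them. Capitals mark CACGTG (the E-box), AGGTCA (the core bound by REV-ERB and ROR receptors) or GGGTGGGG, GGGTGTGG and GGGCGTGG (boxes of the KLF type) on either strand. No marked stretch overlapped another.
Nr1d1 (chr11:98775328-98775627, minus strand): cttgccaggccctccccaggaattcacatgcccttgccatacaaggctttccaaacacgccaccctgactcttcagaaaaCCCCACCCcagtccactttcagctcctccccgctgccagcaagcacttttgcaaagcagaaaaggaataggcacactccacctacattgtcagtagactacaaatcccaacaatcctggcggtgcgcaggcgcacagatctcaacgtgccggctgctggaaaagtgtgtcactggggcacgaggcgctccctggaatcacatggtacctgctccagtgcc
Nr1d2 (chr14:18239057-18239356, minus strand): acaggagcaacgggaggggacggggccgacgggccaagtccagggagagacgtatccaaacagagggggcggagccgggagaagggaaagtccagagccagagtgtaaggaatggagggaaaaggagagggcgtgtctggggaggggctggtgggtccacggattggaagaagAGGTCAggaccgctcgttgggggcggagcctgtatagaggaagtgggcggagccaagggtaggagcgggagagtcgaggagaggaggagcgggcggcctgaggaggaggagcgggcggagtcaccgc
Per1 (chr11:69098699-69098998, plus strand): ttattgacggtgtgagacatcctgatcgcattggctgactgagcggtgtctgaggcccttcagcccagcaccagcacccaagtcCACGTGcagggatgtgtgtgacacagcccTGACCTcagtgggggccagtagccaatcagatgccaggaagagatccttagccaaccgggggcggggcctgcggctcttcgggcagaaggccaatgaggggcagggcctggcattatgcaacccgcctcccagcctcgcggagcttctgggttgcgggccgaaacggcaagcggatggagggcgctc
Cry1 (chr10:85185005-85185304, minus strand): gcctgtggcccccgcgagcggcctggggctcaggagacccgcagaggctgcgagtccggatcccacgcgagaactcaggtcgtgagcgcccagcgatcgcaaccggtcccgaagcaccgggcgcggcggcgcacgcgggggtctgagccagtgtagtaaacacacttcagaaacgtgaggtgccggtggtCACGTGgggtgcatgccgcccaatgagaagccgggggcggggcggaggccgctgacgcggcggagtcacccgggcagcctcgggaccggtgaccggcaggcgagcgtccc
Arntl has overlapping windows at 2 annotated starts. The first, printed because the KLF4 peak covered more of it, held none of these letters, and the capitals in it mark the bases covered by that peak.
Arntl (chr7:113207215-113207514, plus strand): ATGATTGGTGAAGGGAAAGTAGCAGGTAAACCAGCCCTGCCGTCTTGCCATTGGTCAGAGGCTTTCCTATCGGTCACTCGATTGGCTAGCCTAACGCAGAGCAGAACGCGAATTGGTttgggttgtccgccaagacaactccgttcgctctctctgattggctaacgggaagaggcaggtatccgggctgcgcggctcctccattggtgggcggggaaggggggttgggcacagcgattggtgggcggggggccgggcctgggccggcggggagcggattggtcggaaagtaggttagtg
Among the 21263 windows of protein-coding genes, 7.84% held CACGTG, 14.7% AGGTCA, 19.6% a box of the KLF type and 1.03% a D-box (TTATGTAA or TTACGTAA). The second Arntl window held AGGTCA 32 bases after its start, outside the bases covered by the KLF4 peak. One of the Clock windows held AGGTCA on the reverse strand, as TGACCT, 119 bases before its start, and no peak of either factor overlapped that window. The D-box letters TTATGTAA occurred in the Per3 window, 205 and 158 bases before the start. A match of letters is a description and does not show that a factor was bound to them.

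Gene ends were occupied at some of the clock genes only. An HDAC3 peak was centred within 1 kb of an end of 3 of 10 genes (Cry1, Nr1d1 and Nr1d2), against 18.9% of all 21887 protein-coding genes. A KLF4 peak was centred there at 5 of 10 (Clock, Per1, Per2, Nr1d1 and Nr1d2), against 23.1% of all genes. Nr1d1 and Nr1d2 carried both factors at their ends, as did 10.3% of all genes. Just inside the limit of 1 kb stood a KLF4 peak 953 bp from an end of Per2 and an HDAC3 peak 916 bp from an end of Nr1d2, and just outside it KLF4 peaks 1069 bp from Cry1 and 1441 bp from Per2. With so few genes, these counts are a description of the clock genes and not a difference from other genes. When annotated starts replaced gene ends, a choice made after the data were seen, the HDAC3 genes stayed Cry1, Nr1d1 and Nr1d2 and the KLF4 genes were Arntl, Clock, Nr1d1 and Nr1d2, among the 9 genes with a window. Of 17492 protein-coding genes with such a start, 15.9% carried HDAC3, 21.3% KLF4 and 9.06% both within 1 kb of it.

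**Figure D1:**
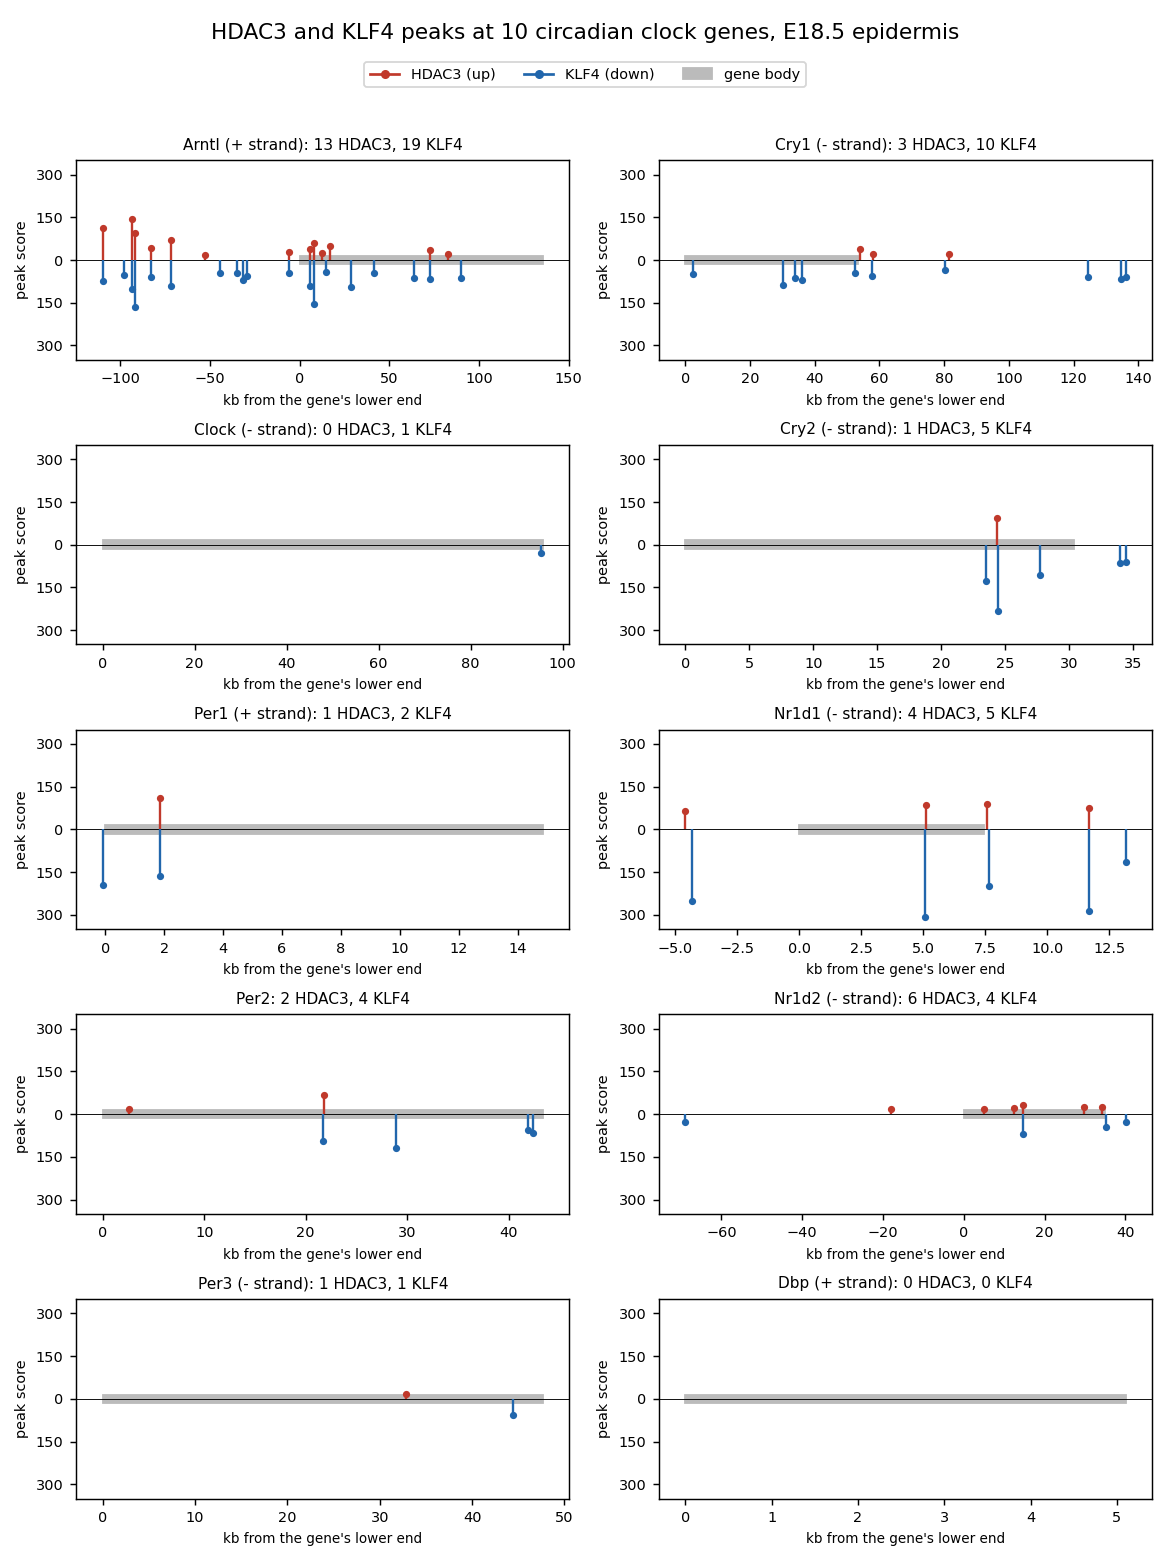
Peaks of HDAC3 (red, upward) and KLF4 (blue, downward) at the 10 clock genes, by distance in kb from the end of the gene with the lower coordinate (x axis) and by the peak score of the authors' caller (y axis), with the gene body in grey. Arntl had the most peaks, 13 for HDAC3 and 19 for KLF4, and Dbp had none. The scores of the 2 factors come from separate callings and are not on a shared scale of occupancy.

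Arntl and Clock, the activators of the loop, differed in occupancy. Arntl, whose product is the partner without which the clock stops, held 13 of the 31 HDAC3 peaks and 19 of the 51 KLF4 peaks. Clock, which encodes the other subunit, had no HDAC3 peak and 1 KLF4 peak. As many HDAC3 peaks as at Arntl were found for 3.6% of protein-coding genes and as many KLF4 peaks for 0.777%. The sequence that lay nearest to the ends of Arntl was also long, 247 kb, and Rassf10, the neighbour before it, ends 221013 bp away. Per 100 kb of that sequence there were 5.26 HDAC3 peaks and 7.69 KLF4 peaks at Arntl, against 2.15 and 1.75 between the outermost coding genes of all chromosomes. Densities above these were not particular to Arntl. KLF4 was denser at Per1 (9.67, from 2 peaks), Cry2 (12.2) and Nr1d1 (19.0), and of the clock genes Clock (1.01) and Dbp fell below 1.75. HDAC3 was denser at Nr1d1 (15.2), and Per3 (2.13), Cry1 (1.93), Clock and Dbp fell below 2.15.

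The highest HDAC3 peaks of the clock genes lay far before Arntl. The highest had a score of 144, a tag number assigned by the authors' caller and used here to rank peaks within a list, and stood within the highest 0.254% of the HDAC3 list. It lay at chr7:113085038-113085222, 93341 bp before the lower end of the gene and 122335 bp before the nearest annotated start. In that interval there were 99.3 HDAC3 tags, scaled by the caller to the size of the input library, and 1 input tag, or 99.35-fold over input (17.6 to 3940). The KLF4 peak there, centred 4 bp away, had 46.1 scaled tags against 1 input tag and was 46.14-fold over input (8.1 to 1840). The very wide intervals come from the single input tag.

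A further HDAC3 peak of score 112 lay 109928 bp before Arntl, at chr7:113068451-113068635, in the highest 0.858% of the list. It had 75.4 scaled HDAC3 tags and the KLF4 peak 13 bp away had 32.1, against 4 input tags in each interval. The enrichment was 18.84-fold for HDAC3 (7.16 to 69.6) and 8.03-fold for KLF4 (3.0 to 30.3). This peak is the last before the boundary with Rassf10: the next HDAC3 peak outward, of score 93, lay 129815 bp from Arntl, and the next KLF4 peak, of score 42, lay 114654 bp from it.

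Both upstream pairs had more HDAC3 than KLF4 tags, which was uncommon among shared sites. Scaled to the same input size, HDAC3 over KLF4 tags came to 2.15 (1.69 to 2.76) at the pair 93341 bp before the gene and to 2.35 (1.75 to 3.13) at the pair 109928 bp before it. Of all 14962 overlapping pairs in the genome, 0.441% had a ratio as high as the first of these and 0.194% one as high as the second. HDAC3 tags exceeded KLF4 tags in 19.4% of all pairs, and the median ratio of all pairs was 0.652 (quartiles 0.442 and 0.916). Tags of different antibodies do not measure occupancy on a shared scale, so a ratio places a pair among other pairs and says nothing on how many molecules of each protein were there. Both pairs were singled out after their values were seen.

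Not all Arntl pairs were of that kind. The pair 92108 bp before the gene, close to the strongest one, had 53.8 HDAC3 tags and 77.8 KLF4 tags against 9 and 8 input tags, a ratio of 0.692 (0.539 to 0.883). That KLF4 peak, of score 166, was the highest of KLF4 for Arntl. At 71627 bp before the gene the values were 43.6 HDAC3 tags and 40.7 KLF4 tags against 5 input tags, and at 83141 bp they were 26.9 and 26.7 tags against 5 and 6. In these pairs the intervals of the ratio, 0.76 to 1.4 and 0.685 to 1.48, included equal tags. The last pair before the gene, 5876 bp away, was the weakest of them, with 18.6 HDAC3 and 20.4 KLF4 tags against 4 and 5 input tags.

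Inside Arntl, the KLF4 peak of score 93 at the annotated starts was the one whose bases are capitalised above. It lay at chr7:113207147-113207331, was centred 226 bp before the first of them and had 44.3 scaled tags against 6 input tags (7.39-fold, 3.24 to 20.4). No HDAC3 peak was nearer than 11884 bp to it. An absent HDAC3 peak means that the threshold of the caller was not passed there, and the HDAC3 tags under it were not analysed here. A KLF4 peak of score 154, 8109 bp inside the gene, had an HDAC3 peak of score 61 centred 346 bp away, which is too far to overlap. Pairs 5424 and 72383 bp past the lower end had 28.4 and 29.9 HDAC3 tags and 39.8 and 29.4 KLF4 tags.

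Assignment to Arntl by nearest coding gene does not show that these sites act on it. When genes of any biotype could be nearest, 49943 genes in place of 21887, 5 of the 13 HDAC3 peaks and 5 of the 19 KLF4 peaks still belonged to Arntl. Its strongest pair then lay nearest to 4930543E12Rik, a long noncoding RNA gene with an end 15106 bp away. The pair 109928 bp away lay nearest to Gm40452, another noncoding gene, 17955 bp away. By nearest end alone, without the 1 kb window, Per2 kept 1 of 2 HDAC3 and 0 of 4 KLF4 peaks. Clock kept 0 of 1 KLF4 peaks, and Cry2 0 of 1 HDAC3 and 2 of 5 KLF4 peaks. Nr1d1 kept 2 of 4 HDAC3 and 2 of 5 KLF4 peaks, and Nr1d2 5 of 6 and 2 of 4. Cry1 kept 3 of 3 and 7 of 10, and Per1 and Per3 kept all of theirs. The share of all listed peaks that kept their coding gene was not computed, so these counts have no background beside them.

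The single peak of Clock, whose product is a histone acetyltransferase as well as a DNA-binding partner of BMAL1, was weak. KLF4 had a score of 29 there, in the highest 88.0% of its list, and 10.9 scaled tags against 2 input tags (5.43-fold, 1.35 to 47.4). It lay at chr5:76305148-76305332 and was centred 448 bp before the nearest annotated start. The nearest HDAC3 peak to the gene, of score 23, was 15054 bp outside it and closer to Tmem165.

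Among the Per genes, which encode the repressor proteins that carry the daily delay, the order of the highest peaks was Per1, then Per2, then Per3 for both factors. Per1 had 1 HDAC3 peak, of score 109, in the highest 0.92% of that list. It lay at chr11:69096884-69097068, 1868 bp inside the gene as annotated and 1973 bp before the nearest start of the promoter table. In this interval 71.5 scaled HDAC3 tags stood against 3 input tags (23.82-fold, 7.99 to 117). The KLF4 peak centred 27 bp away, of score 162, had 73.3 scaled tags against 3 input tags (24.43-fold, 8.22 to 120). The ratio of 0.975 (0.774 to 1.23) put HDAC3 and KLF4 tags at near equality.

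Per1 also carried the highest KLF4 gene-end peak of the 10 genes after that of Nr1d1. Its score was 194 and it was centred 88 bp outside the lower end, at chr11:69094928-69095112, with 90.5 scaled tags against 7 input tags (12.93-fold, 6.16 to 32.6). No HDAC3 peak was nearer to it than 1956 bp. In terms of the promoter window printed above, with CACGTG 166 bases before the start, both KLF4 peaks and the HDAC3 peak lay farther upstream than the window reaches.

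Per2 shared 1 site between the factors, 21783 bp from its lower end. HDAC3 had a score of 67 there with 43.6 scaled tags, and KLF4 a score of 96 with 43.9, against 4 input tags for each (10.89-fold, 4.01 to 39.9, and 10.97-fold, 4.06 to 40.3). The centres were 36 bp apart at chr1:91437668-91437852 for the HDAC3 peak. KLF4 had a higher peak of score 120 elsewhere in the gene, 7141 bp from the nearest HDAC3 peak, and 2 lower peaks of 65 and 56 near the upper end, 953 and 1441 bp inside it. The other HDAC3 peak of Per2 had a score of 17 and no input tag, so its enrichment is given as at least 4.57-fold against a floor of 3 input tags.

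Per3 had little signal from either antibody. Its HDAC3 peak had a score of 16, which is the threshold of that list, and 13.2 scaled tags against 3 input tags. Its KLF4 peak, 3179 bp past the annotated start, had a score of 55 and 24.9 scaled tags against 6 input tags. The peaks were 11567 bp apart.

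The Cry genes encode the strongest repressors of BMAL1 and CLOCK, and the factors were arranged differently at Cry1 and Cry2. Cry1 had 10 KLF4 peaks, a number reached by 4.16% of coding genes, and 3 HDAC3 peaks. No peak of one factor overlapped a peak of the other, and the closest centres were 545 bp apart. The sequence nearest to the ends of Cry1 was also long, 155 kb. It held 6.45 KLF4 and 1.93 HDAC3 peaks per 100 kb, against 1.75 and 2.15 between the outermost coding genes of all chromosomes. That KLF4 density was near the one at Per2 (6.46) and below the one at Cry2 (12.2). Among genes of any biotype, 7 of the 10 KLF4 peaks were nearest to Cry1. KLF4 scores at Cry1 ran between 35 and 86 and HDAC3 scores between 20 and 40. The highest HDAC3 peak of Cry1, at chr10:85185519-85185703, was centred 557 bp before the annotated start and had 24.5 scaled tags against 3 input tags (8.16-fold, 2.63 to 40.9). It lay farther out than the window printed above, which holds CACGTG 60 bases before that start. The nearest KLF4 peak was on the other side of the start, 1069 bp inside the gene, and had 20.8 scaled tags against 3 input tags.

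At Cry2 the single HDAC3 peak coincided with the highest of 5 KLF4 peaks. HDAC3 had a score of 94 and KLF4 a score of 234, with centres 8 bp apart, about 6 kb inside the gene at chr2:92427966-92428150 for HDAC3. The tags were 61.7 for HDAC3 and 114.9 for KLF4 against 10 input tags, or 6.17-fold (3.24 to 13.2) and 11.49-fold (6.15 to 24.3). Input was thus higher here than at a typical peak: the median over the KLF4 list was 3 input tags and over the HDAC3 list 2. A KLF4 peak of score 129 lay 899 bp from the HDAC3 peak, a further one of 107 was nearer to the start, and those of 65 and 59 lay outside the gene.

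Nr1d1 and Nr1d2 encode the receptors through which NCoR and HDAC3 are known to reach the Arntl promoter in liver. Nr1d1, a short gene that overlaps the end of Thra, carried the densest occupancy of the 10 genes, with 15.2 HDAC3 and 19.0 KLF4 peaks per 100 kb over 26.4 kb. At its promoter the HDAC3 peak, of score 89, was centred 141 bp before the start at chr11:98775426-98775610, and the KLF4 peak, of score 199, was centred 209 bp before it. The HDAC3 interval lay wholly within the window printed above and the KLF4 interval covered 134 of its bases, so that the capitalised CCCCACCC, 170 bases before the start, was inside both. There were 58.2 HDAC3 tags and 91.8 KLF4 tags against 12 input tags in each interval. Enrichment at this promoter was 4.85-fold for HDAC3 (2.63 to 9.5) and 7.65-fold for KLF4 (4.29 to 15.1), where 4-fold was required for a call. No HDAC3 peak of the clock genes had more input tags than this one.

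KLF4 was highest of all clock sites within and around Nr1d1. The KLF4 peak 2363 bp inside the upper end had a score of 309, in the highest 2.02% of its list, with 148.4 scaled tags against 11 input tags (13.49-fold, 7.42 to 27.2). The HDAC3 peak 44 bp from it had a score of 86 and 56.3 scaled tags against 11 input tags (5.12-fold, 2.68 to 10.3). Upstream, 4242 bp before the start, HDAC3 had 52.4 tags and KLF4 134.4 tags against only 4 input tags, or 13.09-fold (4.97 to 48.9) and 33.59-fold (13.0 to 124). The ratios of HDAC3 to KLF4 tags at these sites, 0.379 (0.296 to 0.46) and 0.39 (0.309 to 0.487), were low ones among all pairs, of which 82.7% and 81.5% had a ratio at least as high. A KLF4 peak of score 251 and an HDAC3 peak of 66 lay within Thra, 282 bp apart, and a KLF4 peak of 113 lay farther upstream without an HDAC3 peak.

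Nr1d2 showed the reverse balance in number and far lower heights. It had 6 HDAC3 peaks and 4 KLF4 peaks, with HDAC3 scores between 17 and 31 and KLF4 scores between 27 and 70. A KLF4 peak of score 46 lay across its promoter, centred 102 bp before the start at chr14:18239116-18239300, with 20.8 scaled tags against 5 input tags (4.16-fold, 1.66 to 13.4), and the capitalised AGGTCA of the window was inside it. The HDAC3 gene-end peak was on the other side of the start, 916 bp inside the gene, with a score of 25 and 13.7 scaled tags against 1 input tag (13.7-fold, 2.27 to 560). The only shared site lay 14682 bp from the lower end, with 16.6 HDAC3 tags against 1 input tag and 31.7 KLF4 tags against none, which makes KLF4 at least 10.6-fold enriched against a floor of 3 input tags. Of the 6 HDAC3 peaks, those of score 31, 25 and 25 were above the median of 22 of the whole list, and those of 20, 18 and 17 were below it. With at most 3 input tags under each, counting error alone leaves their enrichment poorly known.

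Dbp, the output gene of the loop, had no peak of either factor. Its territory is small, 5.39 kb, because Sphk2 overlaps it and Car11 and Rpl18 lie close by. Of all coding genes, 64.9% were nearest to an HDAC3 peak and 59.3% to a KLF4 peak, against 8 and 9 of the 10 clock genes. The nearest peaks to Dbp belonged to Rpl18, a ribosomal protein gene. They were an HDAC3 peak of score 99 and a KLF4 peak of score 430 centred 4580 and 4604 bp outside Dbp.

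**Figure D2:**
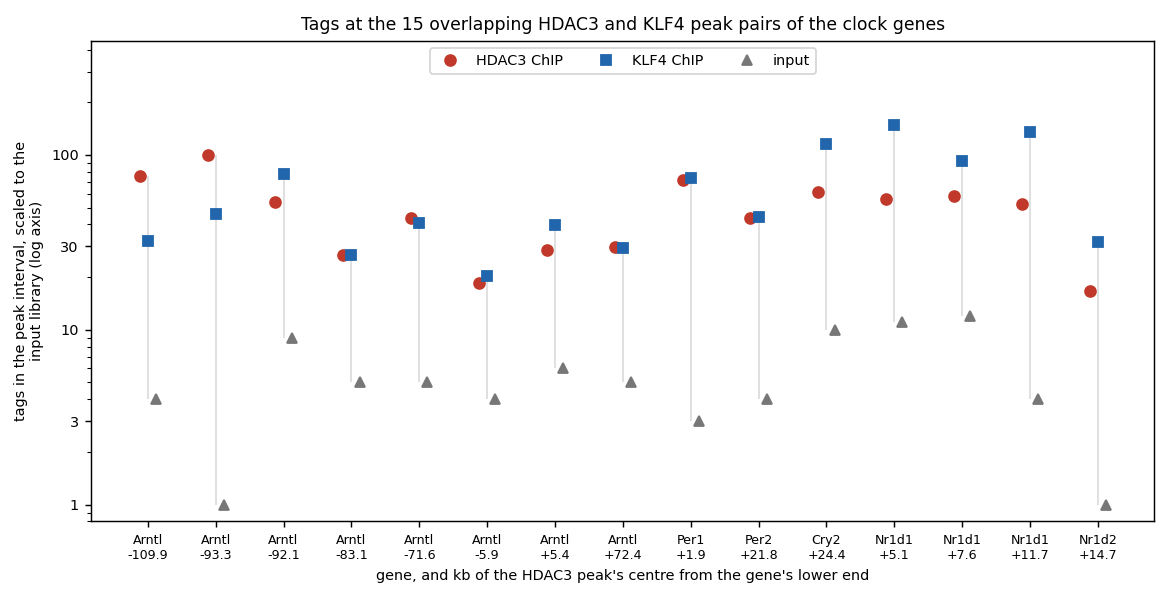
Tags in the 185 bp intervals of the 15 overlapping pairs of HDAC3 (red circles) and KLF4 peaks (blue squares) at clock genes, with the input tags of the HDAC3 interval (grey triangles), all on the scale of the input library and on a log axis. HDAC3 tags were higher than KLF4 tags by the widest margin in the 2 pairs 109928 and 93341 bp before Arntl. KLF4 tags were the higher ones in some other Arntl pairs and at Cry2, Nr1d1 and Nr1d2, and narrowly so at Per1 and Per2.

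Few clock gene peaks stood at gene ends, and the same was true of the whole lists. Of the 31 HDAC3 peaks 3 (9.68%) were centred within 1 kb of an end, against 6.97% of the whole HDAC3 list, and of the 51 KLF4 peaks 5 (9.8%), against 10.8% of the whole KLF4 list. The factors overlapped at 15 sites of the clock genes, 8 of them at Arntl. Overlap here means that the intervals shared at least 1 bp. These sites were 48.4% of the 31 HDAC3 peaks (30.2 to 66.9, exact Clopper-Pearson interval at 95%), against 25.8% of the whole HDAC3 list. When a gene of any biotype could be nearest, 6 of the 19 HDAC3 peaks left overlapped KLF4, which is 31.6% and near the share of the whole list. Under the other settings tried the share of HDAC3 peaks ran between 38.7% and 59.1%. The share of the whole list was not recomputed for changed thresholds or overlap limits. The overlapping sites were 29.4% of the 51 KLF4 peaks (17.5 to 43.8), against 31.7% of the whole KLF4 list. Both lists were called against the same input, and peaks of 1 gene are not independent of each other, so these shares describe the clock genes and were not tested. Clock gene peaks of HDAC3 were higher in score than those of the whole list (medians 39 and 22). For KLF4 the medians were equal (65 and 65). The HDAC3 scores were uneven among the genes, and the 13 peaks at Arntl had a median of 42. The highest HDAC3 score was 109 at Per1, 94 at Cry2, 89 at Nr1d1 and 67 at Per2. It was 40 at Cry1, 31 at Nr1d2 and 16 at Per3. Fold over input differed little for HDAC3, with medians of 7.34 at clock genes and 6.85 in the list. Input tags were more numerous under the clock gene HDAC3 peaks (medians 3 and 2). Those peaks also lay closer to gene ends (medians 12300 and 23200 bp). Whether input or position accounts for the higher HDAC3 scores was not tested. HDAC3 peaks of the clock genes at overlapping sites had a median score of 74 and the other 16 had 21. The whole HDAC3 list was not split in this way, so whether the clock genes differ from it here is unknown.

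**Figure D3:**
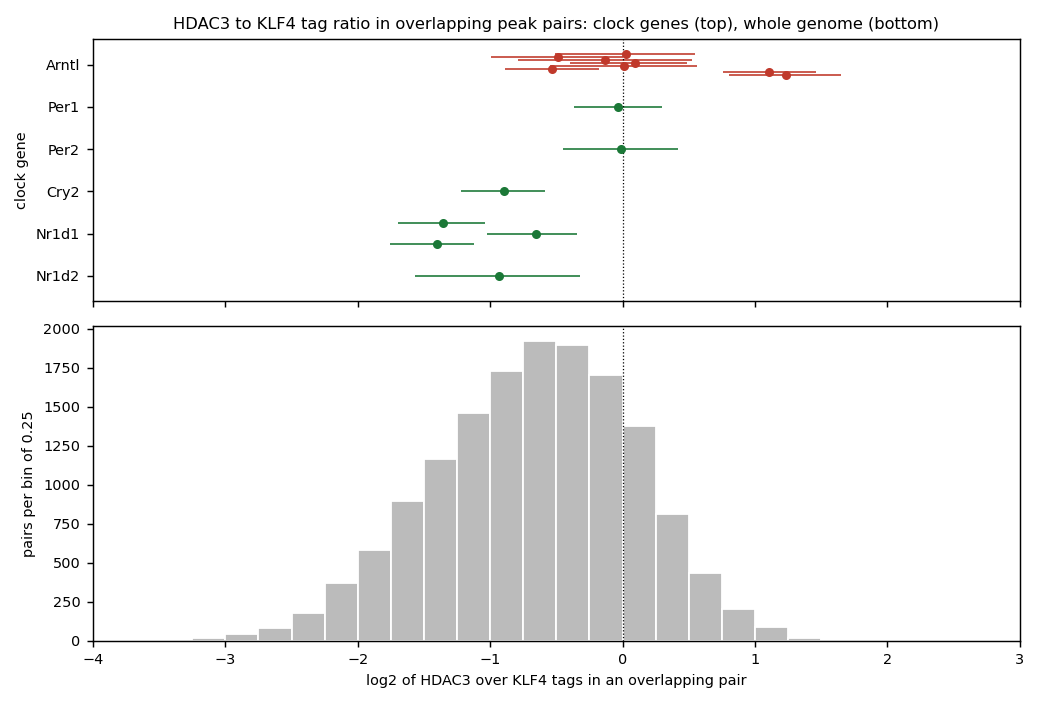
HDAC3 over KLF4 tags (log2 axis) in each overlapping pair of the clock genes, with exact 95% counting intervals (top), and the distribution over all 14962 overlapping pairs (bottom). The dotted line marks equal tags. The median was 1.02 over 8 Arntl pairs, 0.537 over the 7 pairs of the other genes and 0.652 over all pairs.

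More HDAC3 than KLF4 tags were found in 5 of the 15 pairs, all at Arntl, against 19.4% of all pairs. In 3 of those 5 the counting interval of the ratio included equal tags. The Arntl pairs ranged between 0.692 and 2.35 with a median of 1.02. The 7 pairs at Per1, Per2, Cry2, Nr1d1 and Nr1d2 ranged between 0.379 and 0.993 with a median of 0.537. The ranges overlapped, and the pairs of a gene share their chromatin, so the difference between Arntl and the other genes was not tested.

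Further genes of the clock network were counted from a list of 25 that was drawn up by role. It holds activator partners, the ROR receptors, kinases and ubiquitin ligases that act on PER and CRY, other repressors and D-box factors, and subunits of the NCoR complex. An HDAC3 gene-end peak was present at 7 of the 25 (28.0%, against 18.9% of all coding genes) and a KLF4 gene-end peak at 7 (28.0%, against 23.1%), with both at 4 (16.0%, against 10.3%) and neither at 15. The median gene-end score was 51 for HDAC3 and 53 for KLF4 in the list, against 30 and 73 over all coding genes with such a peak. HDAC3 was highest at Tbl1x, which encodes a subunit of the NCoR complex (score 86, 51.4 scaled tags against 4 input tags), and at Bhlhe40, a repressor of E-box genes (52, with 31.3 tags against 5). Ciart, a repressor of BMAL1 and CLOCK, and Gps2, another NCoR subunit, followed with 51 each. KLF4 was highest at Csnk1e, a kinase of PER proteins (104, with 48.9 tags against 11), then at Ciart (79) and at Npas2, a relative of Clock (67). Ciart and Gps2 had the factors nearly superposed, at chr3:95877524-95877708 and chr11:69913831-69914015 for HDAC3. Fbxl21, Nono and Hdac3 itself were nearest to no peak of either factor, although a KLF4 peak of score 44 lay within 1 kb of an end of Nono.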

How the data were processed

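ChIP-seq libraries of HDAC3, KLF4 and input formed groups of 1 library each, by antibody, per the labels. The submitters' processing notes name bcl2fastq, STAR and HOMER and the build GRCm38.p5. No tool version is stated there. HOMER, per the file headers, called peaks of 185 bp in factor style separately for HDAC3 and KLF4 against the same input, at 4-fold or more over the input and over the surrounding 10 kb and at a false discovery rate of 0.001. The deposited tag signal was normalised by the authors for library size; further columns scale it to the input total. The score is the position-adjusted tag number of the authors' caller, and the fold over input and over the local region are ratios of the authors. The deposited p-value columns and the focus ratio, a fraction in the deposited lists, were read and not used.

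Peaks on unplaced contigs were left out. Peak centres were placed on RefSeq genes of GRCm38.p6 (21887 protein-coding genes), since patch releases keep the coordinates of the primary chromosomes. Starts and promoter sequences came from RefSeq windows of GRCm38.p6, found for 9 of the 10 genes. Whole tags of a peak were recovered from the normalised tags and library total (within 0.3 of a whole number for 100.0% of HDAC3 and 99.0% of KLF4 peaks). Counting intervals of a fold or ratio are exact binomial (Clopper-Pearson) intervals at 95% on the share of tags. They leave out the spread between embryos and PCR copies. An input of 0, which the caller writes as 0.5, was replaced by a floor of 3 tags. All 10 genes were described, with the highest peak of each factor and every gene-end peak; of the further network genes, the 3 with the highest gene-end score of each factor (4 where tied) and those nearest to no peak were named. The genes and the list were chosen with earlier results of these data known. Alternatives were other gene-end windows, biotypes, peak thresholds and overlap distances. Analyses used Python 3.11.15 with numpy 2.4.6, pandas 2.3.3, scipy 1.17.1 and matplotlib 3.10.9. Placement, overlap and interval code was tested on simulated data.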

Additional observations from a re-analysis of the deposited data

How the results depend on the processing

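Counts of genes and peaks moved with the definitions. Of 43 values under alternative settings, 24 left the range of 1.5 times the reported count or the counting interval of the reported share, 18 of them downward. Narrower windows, stricter peak thresholds and leaving out Arntl cannot raise a count, and a wider window cannot lower it. Many of these moves thus follow from the settings, and the shares of all coding genes moved as well. With a window of 0.5 kb, 1 clock gene had an HDAC3 gene-end peak and 1 had both factors, and in the network list 4 genes had HDAC3 and 2 had KLF4, against 11.8% of all coding genes for HDAC3, 15.8% for KLF4 and 6.35% for both. With 5 kb the clock genes numbered 6 for HDAC3, 9 for KLF4 and 6 for both, and the network genes 12 and 17, against 46.2% of all coding genes for HDAC3, 46.0% for KLF4 and 30.7% for both. With peaks at least 8-fold over input, 1 clock gene kept a KLF4 gene-end peak and 0 had both, 14 HDAC3 and 25 KLF4 peaks were left, and the network counts were 4 and 3, against 6.76%, 11.0% and 2.86% of all coding genes for HDAC3, KLF4 and both. The higher-scored 50% of each list gave 3 clock genes with KLF4, 1 with both, 27 KLF4 peaks and 3 network genes with KLF4. The gene-end shares of all coding genes were then 14.3% for HDAC3, 13.2% for KLF4 and 6.69% for both. Of those 27 KLF4 peaks, 48.1% overlapped HDAC3. The overlap share over all higher-scored peaks was not computed, so this value has no background beside it. When a gene of any biotype could be nearest, 19 HDAC3 and 24 KLF4 peaks were left, and the share of HDAC3 peaks overlapping KLF4 was 31.6%, within the counting interval of the reported 48.4% and near the 25.8% of the whole list. Without Arntl, a choice made after the data were seen, there were 18 HDAC3 and 32 KLF4 peaks, and 38.9% and 21.9% of them overlapped the other factor. Overlap limits of 50 and 370 bp left both overlap shares within their counting intervals. The scarcity of input tags, with a median of 2 to 3 per peak, limits the fold over input of a single peak. No paired analysis was possible because each antibody has 1 library.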
